A study of Mus musculus with 40 samples.

Results

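The mitochondrially encoded genes were taken as the rows of the count table whose GRCm38 gene symbol begins with mt-. They number 37 of the 43629 genes in the table and comprise 13 mRNA genes, 2 rRNA genes and 22 tRNA genes. The study asked how the gut microbiota shapes transcription in the mouse amygdala, a brain region that processes social and emotional cues, at baseline and after a social encounter. RNA was taken from the amygdala of the left hemisphere of Swiss Webster mice aged 10 weeks that were conventionally colonised (CON), germ-free from birth (GF), or born germ-free and given a conventional microbiota after weaning (exGF). CON (n = 4 libraries), GF (n = 4) and exGF (n = 4) were naive, and CON-SI (n = 8), GF-SI (n = 12) and exGF-SI (n = 8) were collected 1 hr after the three-chamber social interaction test (SI). Naive libraries (P1 to P4 in each group) were pools of animals, except GF-P2, which is described as 1 sample and not a pool, and SI libraries (numbered with S) were single mice. Apart from GF-P2, pooling therefore cannot be told apart from social interaction, and habituation to the test cannot be in any library. The conventional mice came from other breeding pairs than the germ-free ones.

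The mitochondrial genome is a small circle that is transcribed from both strands into long precursors. The tRNAs lie between the other genes and are cut out, which releases the mRNAs and the rRNAs. The mRNAs encode core subunits of the respiratory chain and of ATP synthase: the mt-Nd genes complex I, mt-Cytb complex III, mt-Co1 to mt-Co3 complex IV, and mt-Atp6 and mt-Atp8 complex V. The rRNAs mt-Rnr1 and mt-Rnr2 form the small and large subunit of the mitochondrial ribosome, which translates only these mRNAs. Neurons depend on the respiratory chain for most of their ATP, and all its remaining subunits are made from nuclear genes.

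Sequences of 2 kinds bear on the values that follow. The first are the 4 tRNAs with the highest total counts. Of them, mt-Tw and mt-Tq passed the threshold in a comparison below, and mt-Tp and mt-Ta in none. They are written as DNA from the GENCODE vM21 transcripts on GRCm38, 5′ to 3′ along each gene, with the anticodon in capitals. mt-Tw (tryptophan) lies at M:4950-5016 on the plus strand, while mt-Tp (proline) at M:15356-15422, mt-Tq (glutamine) at M:3772-3842 and mt-Ta (alanine) at M:5018-5086 lie on the minus strand.
mt-Tw: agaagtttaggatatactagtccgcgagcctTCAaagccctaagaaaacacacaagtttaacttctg
mt-Tp: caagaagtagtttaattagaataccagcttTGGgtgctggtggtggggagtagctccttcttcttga
mt-Tq: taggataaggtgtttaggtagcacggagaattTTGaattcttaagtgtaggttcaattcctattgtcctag
mt-Ta: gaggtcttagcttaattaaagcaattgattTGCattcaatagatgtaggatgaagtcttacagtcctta

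The second kind shows a nuclear copy of a mitochondrial gene, since such copies bear on which mRNAs could be counted. These are the first 60 bases of mt-Nd3, at M:9459-9518 on the plus strand, and of the nuclear gene model Gm28438, at chr1:24613060-24613119 on the minus strand. The base that differs is in capitals. Counted from 1 at the 5′ end of mt-Nd3, the difference is T3C, and it was the 1 difference over the 345 bases that the models share.
mt-Nd3: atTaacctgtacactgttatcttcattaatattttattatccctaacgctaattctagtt
Gm28438: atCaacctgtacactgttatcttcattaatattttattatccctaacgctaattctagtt

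Total counts ranged from 7291810 to 19961958 per library with a median of 14512696.5, so that 3 counts, the upper limit that a count of 0 allows, stood for 0.150 to 0.411 in counts-per-million units (CPM). These limits cover counting error only. Normalised CPM below are relative to library sizes scaled by the trimmed mean of M-values (TMM). In 5 libraries more than 5% of all counts fell in Gm42418, a gene model that overlies the nuclear ribosomal RNA repeat. They were P1 (32.3%) and P3 (18.5%) of CON, P1 (14.3%) and P2 (6.23%) of exGF, and S7 (9.25%) of exGF-SI. In the other 35 libraries the share was 0.00882% to 1.75%. For the members, results that rest on the 5 libraries are given with and without them. Summed markers of neurons were at 3770 to 4563 normalised CPM in CON and at 3800 to 5505 in CON-SI. No pair of libraries was identical.

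The 13 mRNAs fell into a group of 7 that was abundant in every library and a group of 6 that was almost uncounted. Per library, mt-Co1, mt-Nd1, mt-Cytb, mt-Nd4, mt-Nd2, mt-Nd5 and mt-Nd6 each received between 4030 and 393739 counts. By contrast, mt-Co2, mt-Co3, mt-Atp6, mt-Atp8, mt-Nd3 and mt-Nd4l received at most 46 counts in any library, and 1546 counts in sum over the 40 libraries. mt-Nd3 made up 942 of these and had 7 to 46 counts in each of the 40 libraries, whereas mt-Nd4l totalled 60, mt-Co3 79, mt-Atp8 113, mt-Co2 114 and mt-Atp6 238. Subunits of the same enzyme were thus on either side of the gap, with mt-Co1 at a median of 299434 counts and mt-Co2 at 2.5.

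For 5 of the 6 uncounted mRNAs the nuclear genome annotation holds a near-identical stretch on chromosome 1. Of all 100-base windows of the gene, those also found in nuclear models were 99.5% for mt-Co2, 99.5% for mt-Atp6, 99.9% for mt-Co3, 97.6% for mt-Nd3 and 98.5% for mt-Nd4l. mt-Co2 and Gm28661 were identical over 681 bases, mt-Atp6 and Gm10925 over 678, mt-Co3 and Gm28437 over 783, and mt-Nd4l and Gm10222 over 294. Among the abundant mRNAs the share was 60.8% for mt-Nd4 and 30.8% for mt-Co1, 3.19% for mt-Nd2 and 0 for mt-Nd1, mt-Nd5, mt-Nd6 and mt-Cytb. mt-Atp8 was the exception, with no window in a nuclear model although its counts were as low. The place colinear with it, chr1:24614609-24614812, carries no model of its own. It overlaps Gm10925, which ends at 24614651, and stops short of Gm28661, which starts at 24614885. mt-Atp8 likewise overlaps mt-Atp6 by 43 bases, a stretch too short for a 100-base window to register.

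The nuclear models themselves were mostly uncounted too. Their median was between 2 and 19.5 counts per library except for Gm10222 (252.5) and Gm28438, which received 2671 to 14565 counts with a median of 10114.5. Gm28438 and mt-Nd3 differ by the base shown above, and the count assigned to the nuclear model was far above that assigned to mt-Nd3 in every library. Gm28438 was at 670.8 ± 196 normalised CPM (SD, n = 4) in CON, 895 ± 262 (n = 4) in GF, 808 ± 183 (n = 4) in exGF, 599 ± 129 (n = 8) in CON-SI, 749 ± 201 (n = 12) in GF-SI and 676 ± 116 (n = 8) in exGF-SI. Comparisons were made with edgeR's quasi-likelihood test, adjusted over all genes tested (Benjamini-Hochberg) with a threshold of 0.1. Gm28438 passed in none of them, with an adjusted p (edgeR) of 0.716 for CON-SI against CON, 0.436 for GF-SI against GF and 0.313 for exGF-SI against exGF. Whether the amygdala holds fewer transcripts of the 6 mRNAs than of the other 7 cannot be read from these counts.

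Per kilobase of gene, the order of levels was led by the large rRNA. The libraries were depleted of ribosomal RNA, so the rRNA levels need not be those in the tissue. Median normalised CPM per kb over the 40 libraries was 29812 for mt-Rnr2, 13507 for mt-Co1, 5663 for mt-Nd1, 3532 for mt-Cytb, 2999 for mt-Nd2, 2995 for mt-Rnr1, 2558 for mt-Nd4, 1344 for mt-Nd5 and 1080 for mt-Nd6, the only mRNA gene on the minus strand. The 6 uncounted mRNAs were at 0.164 to 4.70. Counted per kb that no nuclear model shares, mt-Nd4 was at 7023 and stood between mt-Co1 and mt-Nd1. mt-Nd2 and mt-Rnr1 were neighbours that did not differ beyond their spread. The coefficient of variation over the 40 libraries was 15.99% for mt-Co1, 16.3% for mt-Nd1, 18.3% for mt-Nd4, 22.2% for mt-Cytb and 32.8% for mt-Nd6, against 73.9% for mt-Rnr2 and 217% for mt-Rnr1. The mRNAs thus varied far less between libraries than the rRNAs. mt-Co1 alone took 37.2% to 59.4% of the mitochondrial mRNA counts.

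**Figure D1:**
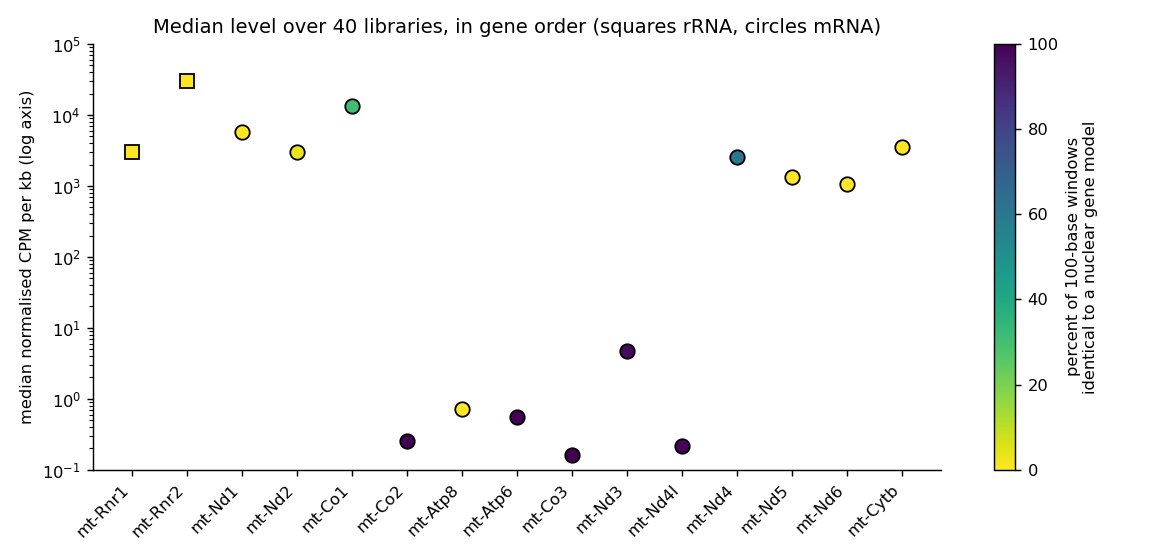
Median normalised CPM per kilobase (log axis) over the 40 libraries of each mitochondrial mRNA (circles) and rRNA (squares) gene, in genome order and coloured by the percent of its 100-base windows identical to a nuclear gene model. Of the mRNAs, 7 lie at 1080 to 13507 and the 6 from mt-Co2 to mt-Nd4l at 0.164 to 4.70, and of these 6 mt-Atp8 alone shares no window.

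Of the 22 tRNA genes, 7 had counts in at least 38 libraries, the other 15 had at most 14 counts in all, and 5 of these 15 (mt-Tf, mt-Tk, mt-Tg, mt-Ts2 and mt-Tl2) were at 0 in every library. Summed over the 40 libraries, the 7 were mt-Tp with 7317 counts, mt-Tw with 7037, mt-Tq with 3832, mt-Ta with 1738, mt-Tt (threonine) with 1197, mt-Ty (tyrosine) with 225 and mt-Te (glutamate) with 176. All tRNAs together had 21574 counts. The minus strand encodes 8 of the 22 tRNAs but 5 of the 7 that were counted, namely mt-Tp, mt-Tq, mt-Ta, mt-Ty and mt-Te. The genes are 59 to 75 bases long, reads shorter than 60 bases were discarded before alignment, and counting did not use strand. A fragment that spans a tRNA and its neighbour, or that stems from the opposite strand, therefore cannot be told apart from the tRNA itself. mt-Tw overlaps the end of mt-Nd2 by 2 bases and mt-Tq overlaps mt-Ti by 3.

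By RNA class, the rRNAs took the most counts and differed most between libraries. In CON, mt-Rnr1 and mt-Rnr2 together made up 17.4% of counts in P1, 6.89% in P2, 9.60% in P3 and 5.57% in P4. In GF the values were 6.25%, 2.77%, 2.19% and 5.74%, and in exGF 16.5%, 12.1%, 3.61% and 4.62%. The 4 highest of the 12 naive values were thus the 4 naive libraries rich in Gm42418, and no GF library was among them. After interaction the lowest, median and highest values were 2.08%, 3.19% and 8.92% in CON-SI, 2.24%, 5.57% and 8.999% in GF-SI, and 3.05%, 3.16% and 13.8% in exGF-SI. The highest exGF-SI value belonged to exGF-S7, which is rich in Gm42418, and without it the maximum was 5.18%. Across the study the 5 rich libraries lay at 9.60% to 17.4% and the other 35 at 2.08% to 8.999% (median 4.62%), with no overlap.

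The mRNA class lay in a narrower band. It took 2.27%, 3.56%, 3.40% and 5.15% of counts in CON, 5.11%, 4.54%, 5.02% and 4.17% in GF, and 2.72%, 3.28%, 5.03% and 4.42% in exGF. The lowest, median and highest values were 3.53%, 4.18% and 4.42% in CON-SI, 2.97%, 4.05% and 5.70% in GF-SI, and 3.24%, 3.96% and 5.27% in exGF-SI. The groups overlapped. The rich libraries were at 2.27% to 3.40% against 2.97% to 5.70% in the others, but as a share of counts outside the ribosomal RNA genes they were at 3.93% to 4.73% against 3.17% to 5.84%, which lies within the range of the others.

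The tRNA class was the smallest, at 25.3 to 52.4 CPM over all libraries. It was at 31.6, 42.5, 37.2 and 45.7 in CON, at 32.1 to 34.7 in GF, and at 38.7, 42.0, 41.4 and 28.4 in exGF. CON-SI had a lowest, median and highest value of 25.3, 36.1 and 48.1, GF-SI of 27.8, 39.8 and 52.4, and exGF-SI of 29.6, 39.4 and 48.4. On this denominator the 4 GF libraries sat inside the range of every other group, and the rich libraries, at 31.6 to 42.0, inside that of the rest. As a share of counts outside the ribosomal RNA genes, the GF libraries were at 0.00334% to 0.00368% and lay below the 4 CON libraries, at 0.00457% to 0.00629%. On that denominator CON-P1 (0.00629%) and exGF-P1 (0.00560%) were above the highest of the 35 others (0.00559%). The order of the groups in this class thus depended on the denominator. All 37 genes together took 6.33% to 19.6% of a library's counts, with a median of 8.95%.

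**Figure D2:**
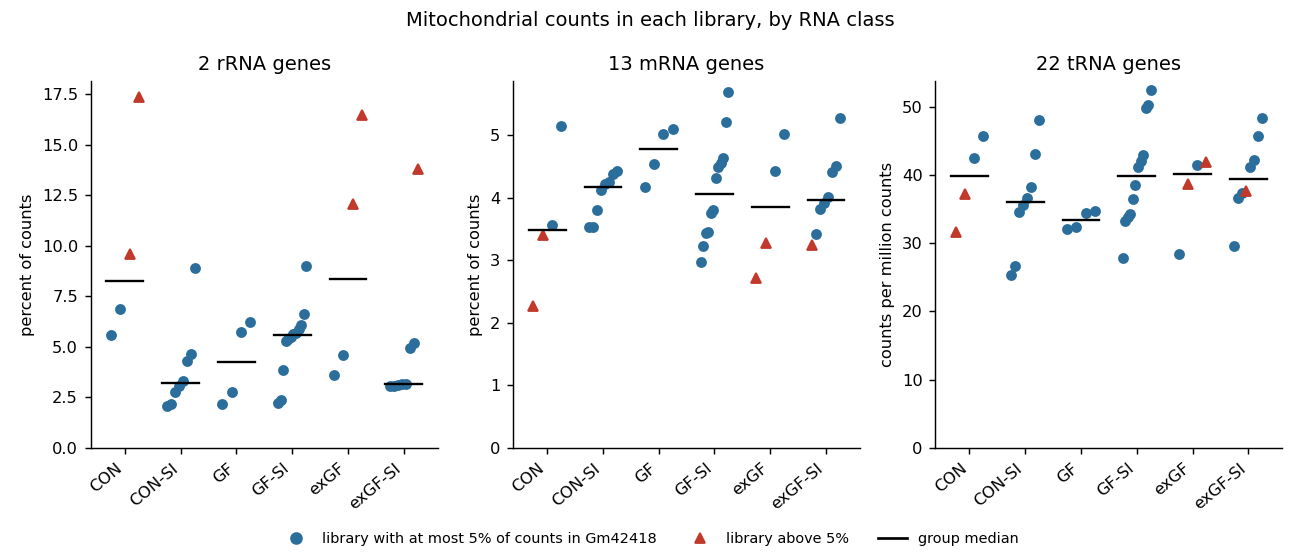
Share of each library's counts in the mitochondrial rRNA, mRNA and tRNA genes, by group, with 1 point per library, the group median as a line and the 5 libraries with over 5% of counts in Gm42418 as triangles. The tRNA axis is in CPM, the others in percent, and the rRNA share of the marked libraries (9.60% to 17.4%) lies above that of all others (2.08% to 8.999%), while their tRNA share of all counts (31.6 to 42.0 CPM) lies within the range of the others.

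Within the rRNA class the ratio of the 2 counts differed between libraries as well. These are counts after depletion of ribosomal RNA, so the ratio need not be that of the subunits in the tissue. Whether depletion differed between the 2 rRNAs was not tested. mt-Rnr1 was at 29.1% to 53.1% of the mt-Rnr2 count in the rich libraries and at 2.79% to 18.1% (median 5.85%) in the other 35. Among these 35, the highest ratios belonged to GF-S5 (18.1%), GF-P1 (13.8%) and CON-S7 (13.1%). GF-S5 and CON-S7 had the largest Gm42418 shares of the 35, at 1.75% and 1.26%, and GF-P1 was at 0.107%. The level of mt-Rnr1 went with that of Gm42418 across these 35 libraries (log2 of CPM + 0.5, Pearson r = 0.86 and Spearman rho = 0.83, permutation p = 1e-05 for each, the smallest that 100000 permutations can give). The relation held without the 2 libraries farthest from the median of Gm42418 (r = 0.79), and mt-Rnr1 changed by 0.54 log2 units per log2 unit of Gm42418. For mt-Rnr2 r was 0.75 and rho 0.72 (permutation p = 1e-05 for each), r without the 2 farthest libraries was 0.69, and the slope was 0.24. Both rRNAs and Gm42418 are measured in the same libraries and share a denominator. With the 3 genes left out of the denominator, r was 0.86 for mt-Rnr1 and was 0.76 for mt-Rnr2.

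Within the SI groups, Pearson's r was higher in CON-SI and GF-SI than over all 35 libraries, but the other measures did not all follow. In CON-SI (n = 8, exact permutation test, two-sided) mt-Rnr1 gave r = 0.95 (p = 0.00139) and rho = 0.90 (p = 0.00456), and mt-Rnr2 r = 0.89 (p = 0.00528) and rho = 0.79 (p = 0.0279). Without the 2 farthest libraries r fell to 0.65 and 0.58, so that in CON-SI the size of r rests in part on them. In GF-SI (n = 12, permutation test) mt-Rnr1 gave r = 0.94 (p = 1e-05) and rho = 0.85 (p = 0.00074), and r was 0.85 without the 2 farthest libraries. mt-Rnr2 in GF-SI gave r = 0.81 (p = 0.00078), rho = 0.62 (p = 0.0341) and r = 0.69 without them. In exGF-SI without exGF-S7 (n = 7, exact permutation test) no relation passed, with r = 0.62 (p = 0.144) and rho = 0.61 (p = 0.167) for mt-Rnr1 and r = 0.30 (p = 0.414) and rho = 0.11 (p = 0.84) for mt-Rnr2. Over the 8 relations, the Benjamini-Hochberg adjusted p of r was 0.00222 for mt-Rnr1 and 0.00704 for mt-Rnr2 in CON-SI and 2.67e-05 for mt-Rnr1 over the 35 libraries by permutation.

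**Figure D3:**
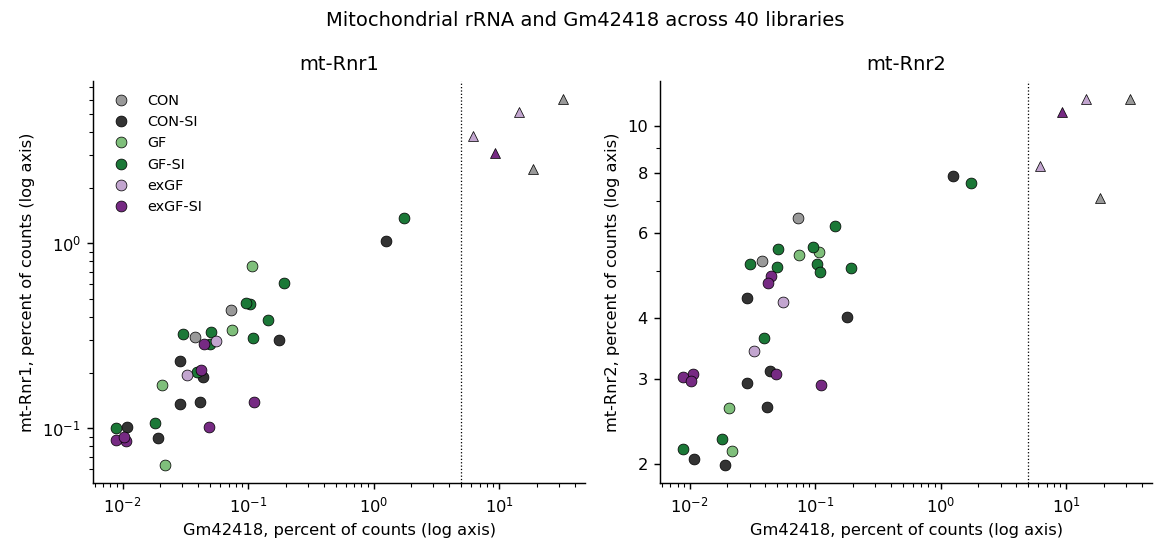
Percent of counts in mt-Rnr1 and in mt-Rnr2 against percent of counts in Gm42418 (log axes), 1 point per library, coloured by group, with a dotted line at 5% in Gm42418 and triangles for the 5 libraries above it. Both rRNAs are higher where Gm42418 is higher (on log2 CPM, r = 0.86 and 0.75 over the 35 libraries below the line).

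Social interaction in conventional mice went with lower counts of 4 mitochondrial RNAs. Of the 15 members that passed the filter on low counts (8 mRNAs, 2 rRNAs and 5 tRNAs), mt-Rnr1, mt-Rnr2, mt-Cytb and mt-Tw were lower in CON-SI than in CON at an adjusted p of at most 0.1 and none was higher. Gm42418, which is not a member, was called lower too, at a log2 fold change of -6.71 ± 1.67 (SE, edgeR adjusted p = 0.0611). It was at 2.06 (edgeR adjusted p = 0.304) in GF-SI against GF and at -2.23 (0.511) in exGF-SI against exGF. Over all 15220 genes tested, 3.72% were called, and 1.37% were called lower. The other 22 members, 5 mRNAs and 17 tRNAs, did not pass the filter and were not tested. A lower count in bulk tissue can stand for fewer cells that carry the RNA or for less RNA per cell, and these cannot be told apart. The libraries were also depleted of ribosomal RNA, which could leave differing amounts of mt-Rnr1 and mt-Rnr2. The part of depletion in these values was not tested.

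mt-Rnr1 was at 113683 normalised CPM in CON-P1, 4364 in P2, 31580 in P3 and 2925 in P4, against a lowest, median and highest value of 790, 1564 and 10594 in CON-SI. P1 and P3, which are rich in Gm42418, stood above every CON-SI library, while P2 and P4 lay within the CON-SI range. The log2 fold change of mt-Rnr1 was -3.81 ± 0.847 (SE, edgeR adjusted p = 0.0397). mt-Rnr2 was at 214101, 64374, 88675 and 49608 in CON and at 17814, 27939 and 80608 in CON-SI, with P1 and P3 again above all CON-SI libraries. Its log2 fold change was -1.58 ± 0.410 (edgeR adjusted p = 0.0712).

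mt-Cytb, the one mRNA that passed, encodes cytochrome b of complex III. It was at 6841, 3964, 5041 and 5335 normalised CPM in CON-P1 to P4, and CON-SI had a lowest, median and highest value of 3057, 3505 and 4150. P1, P3 and P4 were above every CON-SI library and P2 was within their range. The log2 fold change was -0.59 ± 0.130 (edgeR adjusted p = 0.0402). mt-Tw was at 17.3, 13.6, 21.0 and 16.03 in CON and at 8.60, 10.9 and 15.3 in CON-SI, with P2 alone inside the CON-SI range. Its log2 fold change was -0.57 ± 0.155 (edgeR adjusted p = 0.0848).

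The calls in conventional mice depended on the libraries included. Without CON-P1 and CON-P3, 0 of the members passed in edgeR, and the log2 fold change was -0.42 for mt-Rnr1 (adjusted p = 0.889), -0.70 for mt-Rnr2 (0.570), -0.39 for mt-Cytb (0.333) and -0.37 for mt-Tw (0.497). That fit had 2 naive libraries and called 26 of 15887 genes. Leaving out CON-P1 alone ended the call of all 4, with mt-Rnr1 at -2.26 (edgeR adjusted p = 0.217), mt-Rnr2 at -0.95 (0.283), mt-Cytb at -0.44 (0.132) and mt-Tw at -0.56 (0.181), a fold change close to that with CON-P1. No other single library ended the call of mt-Rnr1 or mt-Cytb. The call of mt-Rnr2 was also lost without CON-P2, CON-P3 and 5 of the CON-SI libraries (S3, S5, S6, S10 and S11), over a range of -1.87 to -0.95. That of mt-Tw was also lost without CON-P3, CON-P4 and 4 CON-SI libraries (S6, S10, S11 and S12), over a range of -0.67 to -0.45. All these values kept their sign.

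Markers of other cell types moved between the same groups. The summed level of the 4 choroid plexus markers was 33.8 to 286.7 normalised CPM in CON and 30.2 to 69.8 in CON-SI, and 1 of the 3 tested was lower, namely Folr1 (log2 fold change -2.03, edgeR adjusted p = 0.0665). Of the 2 endothelial markers Cldn5 was lower as well (-0.45, edgeR adjusted p = 0.0464), and of the 4 blood markers Hbb-bs was higher (0.60, edgeR adjusted p = 0.0681). The endothelial sum was 27.9 to 37.8 in CON and 27.6 to 36.1 in CON-SI, and the blood sum 61.0 to 104.2 and 89.9 to 145.4. None of the markers of neurons, astrocytes, oligodendrocytes, microglia, striatum or muscle passed. The part of these shifts in the mitochondrial values was not tested.

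Over all tested members in conventional mice, the called ones included, the median log2 fold change was -0.29 over the 8 tested mRNAs (7 below 0), -2.70 over the rRNAs and -0.42 over the 5 tRNAs (5 below 0), against -0.01 over all genes. The other members did not pass. mt-Nd4 was at -0.33 (edgeR adjusted p = 0.130), mt-Nd1 at -0.25 (0.305), mt-Nd5 at -0.42 (0.275), mt-Nd6 at -0.41 (0.531), mt-Tp at -0.51 (0.362) and mt-Tq at -0.42 (0.493). The almost uncounted mt-Nd3, at 7 to 46 counts per library, is in this and the later mRNA medians and was at -0.08 (edgeR adjusted p = 0.924). mt-Co1, the catalytic core subunit of complex IV, was the only mRNA above 0, at 0.07 (edgeR adjusted p = 0.846), and at -0.03 (0.967) without CON-P1 and P3. It was at 15932, 17733, 20274.5 and 24253 normalised CPM in CON and at 17591, 21035 and 23322 (lowest, median, highest) in CON-SI.

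In germ-free mice 1 member passed. mt-Tq, the glutamine tRNA, was at 4.37, 3.05, 3.19 and 6.17 normalised CPM in GF-P1 to P4, and GF-SI had a lowest, median and highest value of 4.55, 6.39 and 11.8. P4 lay within the GF-SI range and the other 3 naive libraries were below it. In conventional mice mt-Tq was at 9.72, 6.86, 8.90 and 5.82 in CON-P1 to P4 and at 2.49 to 9.82 in CON-SI. The log2 fold change of mt-Tq in GF-SI against GF was 0.72 ± 0.263 (edgeR adjusted p = 0.0984). Among all 15443 genes tested 13.7% were called and 7.87% were called higher, so that 1 of 15 is close to the share among all genes. No library of either group was rich in Gm42418. The call was close to the threshold and was lost without any 1 of 11 of the 16 libraries (GF-P1, P2 and P3, and GF-SI S2, S4, S5, S6, S7, S8, S10 and S12), over a range of 0.59 to 0.97.

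The rRNAs did not pass in germ-free mice. mt-Rnr1 was at 7262, 1571, 604 and 3112 normalised CPM in GF and at 944, 3107 and 14352 in GF-SI, with a log2 fold change of 0.39 (edgeR adjusted p = 0.747). mt-Rnr2 was at 52606, 23951, 20273 and 49579 in GF and at 20291, 51297 and 79382 in GF-SI, also with 0.39 (0.471). For mt-Rnr2, GF-P1 and P4 lay near the GF-SI median and P2 and P3 near its minimum, and the groups overlapped for both rRNAs. Of the mRNAs, mt-Co1 was at 22435, 24834, 27372 and 21237 in GF and 13952, 19087 and 28668 in GF-SI (-0.28, edgeR adjusted p = 0.224), and mt-Cytb at 5534, 3020, 3090 and 3486 against 3380, 4559 and 6362 (0.25, 0.369). The groups overlapped in both.

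In germ-free mice 2 further calls depended on 1 library each. Without GF-P1, the naive library highest in mt-Cytb, mt-Cytb was at 0.50 (edgeR adjusted p = 0.0736), and without GF-S1 mt-Co1 was at -0.34 (edgeR adjusted p = 0.0693). Class medians were -0.07 for the mRNAs, 0.39 for the rRNAs and 0.26 for the tRNAs, of which 5 of 5 were above 0, against -0.01 over all genes. Among the markers, choroid plexus sums were 18.2 to 23.1 normalised CPM in GF and 12.7 to 958.5 in GF-SI with 0 of 3 tested called, while the microglial P2ry12 (-0.33) and the striatal Adora2a (-1.97) were lower in edgeR. Their part in these values was not tested.

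In mice colonised after weaning no member passed in edgeR, where 7.61% of 15264 genes were called, and DESeq2 called 0 members as well. At an unadjusted p under 0.05 edgeR gave 1 member. mt-Rnr1 was at 68232, 45318, 1851 and 2841 normalised CPM in exGF-P1 to P4 and at 776, 1157 and 37152 in exGF-SI, with a log2 fold change of -2.34 ± 1.11 (edgeR adjusted p = 0.240). mt-Rnr2 was at 151315, 98299, 32555 and 41509 in exGF and at 27205, 28782 and 127823 in exGF-SI (-0.84, edgeR adjusted p = 0.306). High values occurred on both sides, in P1 and P2 and in exGF-S7, all rich in Gm42418. Without exGF-S7 both rRNAs passed, mt-Rnr1 at -4.44 (edgeR adjusted p = 0.0165) and mt-Rnr2 at -1.27 (0.0507). Without all 3 rich libraries neither did, at -0.79 (0.394) and -0.14 (0.792).

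The mRNAs and tRNAs of the exGF groups overlapped in each gene given here. mt-Cytb was at 4472, 4348, 5016 and 4563 normalised CPM in exGF against 3266, 3492 and 5359 in exGF-SI, and mt-Tw at 16.9, 15.9, 10.8 and 9.74 against 8.38, 11.6 and 14.1. mt-Tq was at 8.14, 7.52, 7.24 and 4.76 in exGF and at 6.04, 8.31 and 10.9 in exGF-SI. mt-Co1 was at 16323, 19436, 23556 and 22307.5 against 16026, 19746 and 23629. In no case did the naive libraries stand apart from those after interaction. Of the mRNAs, mt-Nd2 had an adjusted p (edgeR) of 0.216 at a log2 fold change of 0.36. Choroid plexus markers summed to 16.4 to 43.5 normalised CPM in exGF and to 25.7 to 1409 in exGF-SI, where 1 of 3 tested, Ttr, was higher (3.93, edgeR adjusted p = 0.0937). Of the 3 microglial markers Cx3cr1 (-0.50) and of the 2 endothelial ones Cldn5 (-0.64) were lower. The microglial sum was 67.4 to 82.4 in exGF and 58.7 to 76.5 in exGF-SI, and the endothelial sum 30.9 to 38.7 and 24.8 to 29.7. The part of these marker shifts in the mitochondrial values of this comparison was not tested.

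**Figure D4:**
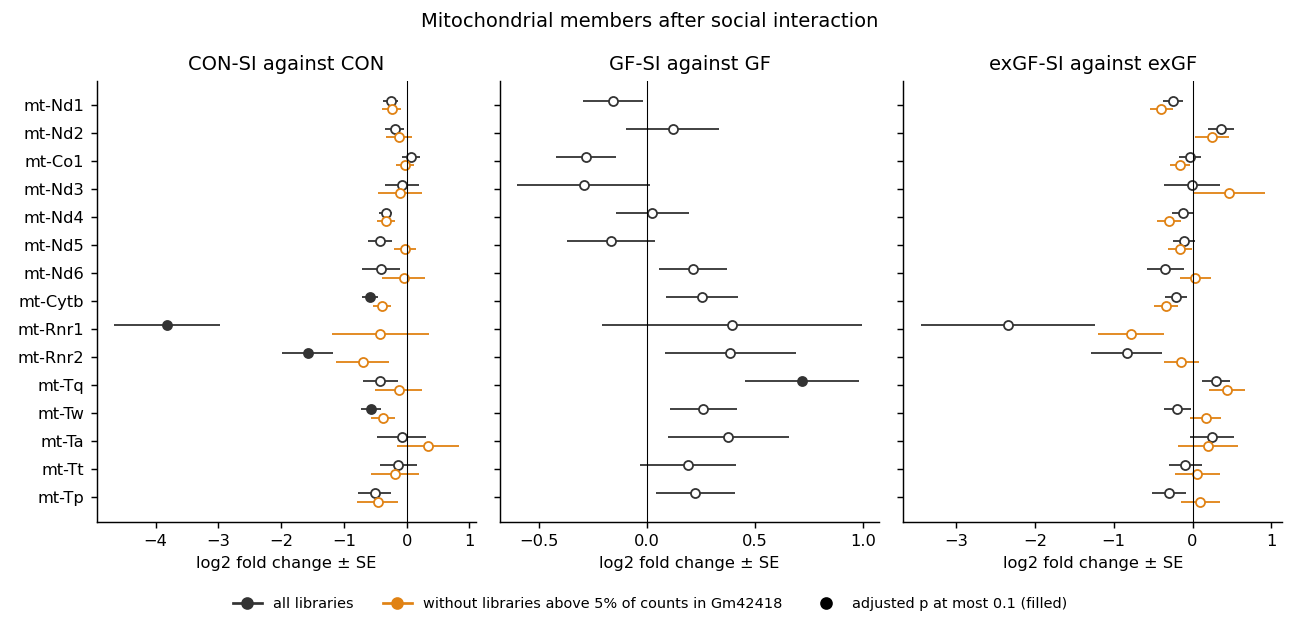
Log2 fold change of the 15 tested members after social interaction against naive mice of the same colonisation status (points with bars of ± SE from edgeR, filled at an adjusted p of at most 0.1), for CON, GF and exGF, with and without the libraries over 5% of counts in Gm42418. The scale of the horizontal axis differs between panels, and without these libraries mt-Rnr1 moves from -3.81 to -0.42 in CON and from -2.34 to -0.79 in exGF, while the GF comparison holds none.

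The other named mRNAs, mt-Nd1 and mt-Nd4, passed in no edgeR comparison. mt-Nd1 was at 5981, 5530, 6528 and 6778 normalised CPM in CON, at 7031, 5424, 6772 and 5358 in GF, and at 5136, 6049.81, 7458 and 5959.82 in exGF. Its lowest, median and highest values were 4117, 5125 and 6648 in CON-SI, 4303, 5398 and 7294 in GF-SI, and 4347, 5084 and 6602 in exGF-SI. The medians of this complex I subunit were 6254 in CON, 6098 in GF and 6005 in exGF, above those of the groups after interaction, while the ranges overlapped. mt-Nd4, another complex I subunit, was at 4183, 3497, 4153 and 4838 in CON, 5055, 3147, 3550 and 3094 in GF, and 3300, 3458, 4763 and 3856 in exGF. After interaction it was at 2775, 3239 and 3818 in CON-SI, 2563, 3762 and 4904 in GF-SI, and 2944, 3462 and 4544 in exGF-SI. The groups overlapped for this gene too, which DESeq2 called lower in CON-SI than in CON (-0.33, adjusted p = 0.0418).

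The proline tRNA mt-Tp was at 23.4, 16.6, 11.1 and 15.04 normalised CPM in CON, 11.7, 10.5, 9.77 and 12.9 in GF, and 19.9, 21.8, 15.2 and 8.61 in exGF. After interaction its lowest, median and highest values were 6.29, 10.9985 and 18.0 in CON-SI, 8.34, 12.9 and 17.8 in GF-SI, and 8.14, 13.5 and 16.4 in exGF-SI. The 3 highest of the 40 values thus came from CON-P1, exGF-P1 and exGF-P2, all rich in Gm42418. mt-Ta was at 5.76, 1.68, 3.15 and 3.26 in CON, 2.09, 2.47, 3.76 and 2.34 in GF, and 2.64, 2.20, 3.003 and 1.81 in exGF. It was at 0.793, 3.33 and 5.07 in CON-SI, 1.63, 3.27 and 5.10 in GF-SI, and 1.43, 2.79 and 4.42 in exGF-SI, so that every group overlapped every other.

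**Figure D5:**
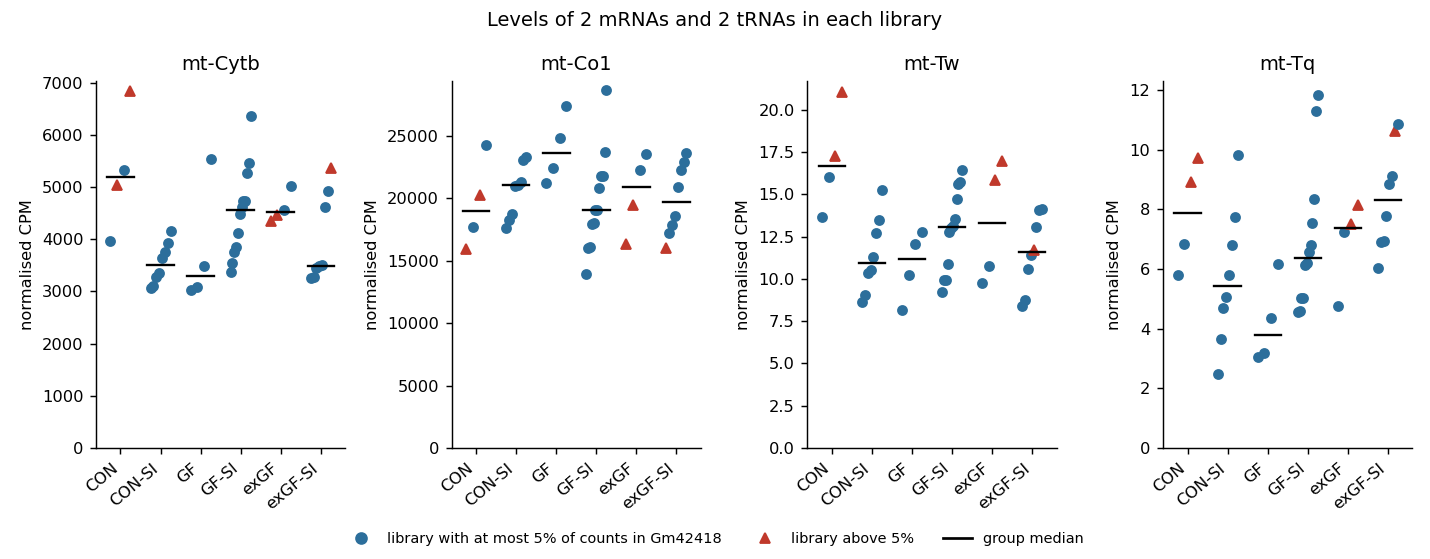
Normalised CPM of mt-Cytb, mt-Co1, mt-Tw and mt-Tq in the 40 libraries by group, with the group median as a line and the 5 libraries over 5% of counts in Gm42418 as triangles. The CON libraries of mt-Cytb (3964 to 6841) and mt-Tw (13.6 to 21.0) lie mostly above those of CON-SI (3057 to 4150 and 8.60 to 15.3), while for mt-Co1 all groups overlap.

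Colonisation status alone moved no member past the threshold in the naive groups. For GF against CON, 0 of 15 members were called in edgeR among 0.142% of 14811 genes. mt-Rnr1 was at a log2 fold change of -3.61 (adjusted p = 0.308), mt-Rnr2 at -1.51 (0.308), mt-Tq at -0.85 (0.304), mt-Tw at -0.66 (0.256) and mt-Cytb at -0.49 (0.433). At an unadjusted p under 0.05 edgeR gave 6 members. DESeq2 called 1, mt-Tw, at -0.66 (adjusted p = 0.0650), among 155 of 16714 genes. Without CON-P1 and CON-P3, mt-Rnr1 was at -0.21 (edgeR adjusted p = 0.979) and mt-Rnr2 at -0.64 (0.844). For exGF against CON, 0 members were called among 0.104% of genes, edgeR gave no unadjusted p under 0.05 for any (0 members) and DESeq2 made 0 calls. There mt-Rnr1 and mt-Rnr2 were each at -0.37, and at -0.64 and -0.62 (edgeR adjusted p = 0.999 for each) without the rich libraries of both groups, where 3 members had an unadjusted p under 0.05. For exGF against GF, 0 members and 0.0% of genes were called in edgeR, with 4 members at an unadjusted p under 0.05 and 0 calls in DESeq2, and mt-Rnr1 was at 3.23 (edgeR adjusted p = 0.433) and mt-Rnr2 at 1.14. Without exGF-P1 and P2 the sign of mt-Rnr1 turned, to -0.42 (edgeR adjusted p = 0.992), and mt-Rnr2 was at 0.02.

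After interaction the colonisation groups did not differ in any member by edgeR at the threshold used. In GF-SI against CON-SI 1.1% of 15078 genes were called, 2 members had an unadjusted p under 0.05, and mt-Cytb was at 0.35 (edgeR adjusted p = 0.141). DESeq2 called mt-Cytb, at 0.36 (adjusted p = 0.0493), among 521 of 15901 genes. Leaving out CON-S2 brought mt-Cytb past the threshold in edgeR (0.39, adjusted p = 0.0935), and leaving out CON-S7 brought mt-Cytb (0.37, 0.0878) and mt-Rnr2 (0.74, 0.0931). In exGF-SI against CON-SI 1.31% of 14937 genes were called in edgeR, and 2 members had an unadjusted p under 0.05. DESeq2 called mt-Nd2 at 0.41 (adjusted p = 0.0754) among 558 of 16761 genes, while edgeR placed it at 0.41 (adjusted p = 0.172). In exGF-SI against GF-SI 0.0995% of 15068 genes were called and 0 members, with 0 members at an unadjusted p under 0.05 in edgeR and 0 calls in DESeq2. Both exGF-SI comparisons moved without exGF-S7. Against CON-SI, mt-Rnr1 went from 1.10 to -1.004 (edgeR adjusted p = 0.404) and mt-Rnr2 from 0.37 to -0.06 (0.948). Against GF-SI, mt-Rnr1 went from 0.51 to -1.60 (edgeR adjusted p = 0.121) and mt-Rnr2 from -0.08 to -0.52 (0.256), and 4 members then had an unadjusted p under 0.05.

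The difference between the responses to interaction was tested in 1 fit over the 6 groups, in which 17 members were measured. For the response of GF against that of CON, edgeR called 0 members and 0.0931% of 16111 genes, with 6 members at an unadjusted p under 0.05. These differences were 0.84 ± 0.223 for mt-Cytb (edgeR adjusted p = 0.118), 0.83 for mt-Tw (0.124), 1.96 for mt-Rnr2 (0.134), 1.13 for mt-Tq (0.143), 4.20 for mt-Rnr1 (0.160) and 0.73 for mt-Tp (0.284). All were in the direction of a lower response in CON. Gm42418, not a member, was at 8.77 in the same contrast (edgeR adjusted p = 0.143). DESeq2 called 4 members, mt-Rnr1 (4.21), mt-Tq (1.16), mt-Tw (0.84) and mt-Cytb (0.85). It tested 12 members there and called 495 of 11694 genes, far more than edgeR did. In edgeR, leaving out any 1 of 8 libraries brought between 1 and 5 members past the threshold. Without CON-S7 there were 5, with mt-Rnr1 at 4.97 (edgeR adjusted p = 0.0723), mt-Rnr2 at 2.26, mt-Tq at 1.29 and mt-Tw and mt-Cytb each at 0.86. Without GF-P1 mt-Cytb alone passed, at 1.08 (edgeR adjusted p = 0.0297). The others were CON-P4 (mt-Rnr2, mt-Tq, mt-Tw and mt-Cytb), CON-S2 and GF-S9 (mt-Tw and mt-Cytb), GF-P4 (mt-Tq and mt-Cytb), GF-S1 (mt-Rnr2, mt-Tw and mt-Cytb) and GF-S3 (mt-Cytb). Without the 5 rich libraries, edgeR called 0 members and 3 had an unadjusted p under 0.05, with mt-Rnr1 at 0.81 (edgeR adjusted p = 0.824), mt-Rnr2 at 1.09 (0.549), mt-Cytb at 0.65 and mt-Tw at 0.64 (0.505 for both).

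The response of exGF differed from neither of the others in any member by edgeR. For exGF against CON, 0 members and 0.0% of genes were called, 0 members reached an unadjusted p of 0.05, and DESeq2 called 0. For exGF against GF, 0 members and 0.0% of genes were called, 1 member being at an unadjusted p under 0.05, and DESeq2 called 0. Against the response of CON, mt-Rnr1 was at 1.47 and mt-Rnr2 at 0.74, and at -0.38 and 0.55 without the 5 rich libraries, so that the sign of mt-Rnr1 turned. Against the response of GF they were at -2.74 and -1.23, and at -1.19 and -0.54 without these libraries. The naive groups are shared between these comparisons and those above.

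Lists of nuclear genes whose products work with the mitochondrial ones were counted in the same fits, over all libraries. They were not counted in the fits without the 5 rich libraries, which for CON-SI against CON called 26 of 15887 genes. These lists were chosen with earlier results of these data known. In CON-SI against CON, 1 of 78 tested nuclear subunits of respiratory complexes I to V was higher and 0 were lower, the one being Atp5h of ATP synthase (log2 fold change 0.28, edgeR adjusted p = 0.0940). Among all genes 3.72% were called in either direction. Of 76 mitoribosomal proteins, Mrps12 was higher (0.32) and Mrpl16 lower (-0.37). Of 28 genes of mitochondrial RNA processing and stability, Pde12, an exonuclease that trims poly(A) tails in mitochondria, was higher (0.32). None of 16 genes of mitochondrial transcription and genome maintenance and none of 7 biogenesis regulators passed, although 7 of these 7 were above 0 (median 0.22).

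In GF-SI against GF, 7 of 80 respiratory chain subunits were higher and 6 lower. Among the lower ones were Cox7c of complex IV (-0.57, edgeR adjusted p = 0.0140), Ndufs3 of complex I (-0.37), Sdhc of complex II (-0.38) and Atp5g2 of ATP synthase (-0.33). Of 16 genes of transcription and genome maintenance, Twnk, the replicative helicase (0.46), and Mgme1, a nuclease of mitochondrial DNA (0.58), were higher and Mterf2, of the mitochondrial termination factor family, was lower (-0.53). Of the 7 biogenesis regulators the coactivator Pprc1 (0.66, edgeR adjusted p = 0.00312) and the transcription factor Gabpa (0.42) were higher. Of 28 RNA processing genes 1 was higher, Fastkd5 (0.59), and 2 lower, among them Fastk (-0.27), and of 76 mitoribosomal proteins 4 were higher and 2 lower. The respiratory chain was close to balanced, at 13 of 80 called in either direction beside 13.7% of all genes.

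In exGF-SI against exGF, 10 of 79 respiratory chain subunits were lower and 0 higher, with a median of -0.11 (61 below 0) against a median of all genes near 0. They included Uqcrc1 of complex III (-0.48, edgeR adjusted p = 0.0204), Cox6a1 of complex IV (-0.88, 0.0233), and Ndufa6 (-0.55) and Ndufv3 (-0.45) of complex I. Of 76 mitoribosomal proteins 8 were lower and 0 higher, among them Mrpl12 (-0.66) and Mrps11 (-0.44). Among all genes 3.01% were called lower. Without exGF-P1, exGF-P2 and exGF-S7, which are rich in Gm42418, edgeR called 155 of 15854 genes, against 1161 of 15264 with them. The lists were not counted in that smaller fit. Gabpb1 (0.36) and Nrf1 (0.27) of the biogenesis regulators were higher, Mterf4 was higher (0.35) and Mterf2 lower (-0.51), and 0 of 28 RNA processing genes passed in edgeR. The mitochondrial mRNAs passed in neither direction in the same comparison. All those tested except mt-Nd2 (0.36) were below 0 as well, from -0.345 for mt-Nd6 to -0.003 for mt-Nd3. Whether the nuclear and the mitochondrial subunits differed in their response was not tested. In GF against CON, exGF against CON and exGF against GF, no gene of the 5 lists was called. Whether the counts differ between the colonisation groups was not tested for these lists.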

How the data were processed

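Amygdala RNA was depleted of ribosomal RNA and made into stranded paired-end libraries (TruSeq). The labels name 2 companies for this step, whereas the study's methods name one of them for library preparation and the other for sequencing. Per the labels and the study's methods, the authors trimmed reads with Trimmomatic 0.32 (minimum length 60), aligned them to GRCm38.p3 with STAR 2.4.0f1 and counted them per Ensembl gene with HTSeq 0.6.0 without using strand. The deposited values are these raw counts of reads per gene, and the authors' own test results were not used here. HTSeq leaves out reads that align to more than 1 place. The methods give naive libraries as pools of 2 animals (2 to 3 in the labels), with GF-P2 described as 1 sample and not a pool. The column names carry the library numbers. Nothing in the labels links numbers across groups.

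The 43629 genes were matched to GENCODE vM21, which gave 42462 of them a symbol. Normalised CPM used TMM library sizes (edgeR 4.0.16 in R 4.3.3). The 9 pairs of groups were tested with edgeR's quasi-likelihood test on the counts as deposited, after filterByExpr, with Benjamini-Hochberg adjustment over all genes tested and a threshold of 0.1. The 3 differences between responses were contrasts in 1 fit over all groups. Correlations and tables used Python 3.11.15 with scipy 1.17.1 and pandas 2.3.3, and figures matplotlib 3.10.9. Shares and sums over members were given no test. p-values measure the spread between these libraries. The fitting scripts were tested on simulated data.

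Values in every library (or lowest, median and highest) are given for both rRNAs, for Gm42418, and for members that passed in any comparison, filled up to 4 mRNAs and 4 tRNAs by mean count. Of each nuclear gene list, up to 4 genes with the smallest p are named. The members, gene lists and the 5% limit on Gm42418 were chosen with earlier results of these data known. Alternatives were RLE scaling, scaling without ribosomal RNA genes, scaling to mitochondrial mRNA, no filter, DESeq2 1.42.0, 1 fit over the 6 groups, leaving out libraries, other pseudocounts (0.1 in place of 0.5) and denominators, and, chosen after seeing the data, adding the counts of nuclear copies to the members.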

Additional observations from a re-analysis of the deposited data

Results flagged for a closer look

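Of 65 sets of values (a member or class within a group) examined for a library far from the rest of its group, 6 were found. Chance gives about 1 in 20 for independent sets. The sets are not independent, since the rRNA share adds up the counts of mt-Rnr1 and mt-Rnr2. All 6 concern the rRNAs of CON-S7 and exGF-S7. In CON-SI, mt-Rnr1 was at 10593.6 normalised CPM in CON-S7 and at 2940.66 in the next library. mt-Rnr2 was at 80608 against 41124.1, and the rRNA share of counts was 8.92% against 4.63%. In exGF-SI, mt-Rnr1 was at 37152 normalised CPM in exGF-S7 and at 2818.85 in the next library, mt-Rnr2 was at 127823 against 48150.7, and the rRNA share was 13.8% against 5.18%. Each of the 2 libraries also had the highest share of counts in Gm42418 in its group, at 1.26% in CON-S7 and 9.25% in exGF-S7. The part of Gm42418 in these values was not tested.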

How the results depend on the processing

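None of the 5 called values reversed its direction under any alternative. Of 156 values compared, 34 changed sign without the libraries over 5% of counts in Gm42418, among them mt-Rnr1 in exGF against GF, exGF-SI against CON-SI and exGF-SI against GF-SI, and 14 of 186 with scaling to mitochondrial mRNA. At most 3 values changed sign under any other alternative fit, single libraries left out not counted here, and no value that changed sign was called on either side. The number of members called changed as follows. For CON-SI against CON it was 4, 0 without the libraries over 5% of counts in Gm42418, and 0 to 4 with 1 library left out. There DESeq2 called 5 members among 962 of 16335 genes, mt-Nd4 in addition (-0.33, adjusted p = 0.0418). For GF-SI against GF it was 1, 0 without a filter on low counts (mt-Tq 0.73, edgeR adjusted p = 0.118), 0 with scaling to mitochondrial mRNA (0.91, 0.260), and 0 to 2 with 1 library left out. For exGF-SI against exGF it was 0, and 0 to 2 with 1 library left out. For GF against CON it was 0, but 4 without a filter (mt-Rnr1, mt-Rnr2, mt-Tq and mt-Tw), 3 with scaling to mitochondrial mRNA (without mt-Tq) and 1 with DESeq2. These fits called 205 of 25937, 94 of 14811 and 155 of 16714 genes, in that order. For exGF against GF it was 0, but 1 (mt-Rnr1) both without a filter (80 of 25902 genes) and with scaling to mitochondrial mRNA (14 of 14669 genes). For GF-SI against CON-SI it was 0, 1 with DESeq2 (521 of 15901 genes), and 0 to 2 with 1 library left out. For exGF-SI against CON-SI it was 0, and 1 with DESeq2 (558 of 16761 genes). For the response of GF against that of CON it was 0, 4 with DESeq2 (495 of 11694 genes), and 0 to 5 with 1 library left out. In the other comparisons it was 0 throughout. mt-Tw in CON-SI also missed the threshold without a filter (-0.56, edgeR adjusted p = 0.102) and with scaling to mitochondrial mRNA (-0.42, 0.209). Scaling to mitochondrial mRNA moved the median of all genes to 0.133 in CON-SI against CON and 0.161 in GF-SI against GF. Adding the counts of nuclear copies changed no number of calls. With counts outside ribosomal RNA as denominator the median tRNA share moved from 0.00399% to 0.00501% in CON, from 0.00334% to 0.00347% in GF and from 0.00401% to 0.00472% in exGF. The cause of these changes was not tested. No paired analysis was possible because the library numbers do not link animals between groups. In the pairwise fits 22 of the 37 members did not pass the filter on low counts, while the fit over 6 groups tested 17 members and fits without a filter 24 to 32.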
